A study of Canis lupus familiaris with 8 samples.

Results

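The salt-inducible kinases, their CRTC substrates and the CREB-family factors that CRTCs bind were examined as 8 transcripts: SIK1, SIK2, SIK3, CRTC1, CRTC2, CRTC3, CREB1 and CREM. They were chosen by gene name, with earlier results of these wells known, from the 37952 genes of the count table. All 8 were in the table and all 8 passed the filter on low counts, which left 14571 genes for testing. The cells were MDCK GII, an established dog kidney epithelial line, and no sample carried a genetic change or an added agent. They were seeded on collagen-coated silicone membrane and grown overnight. Suction around a central pillar stretched the membrane by 18% along both axes in 4 wells, and this static strain lasted 2 hours until lysis; 4 control wells stayed unstrained. The wells of each group are labelled technical quadruplicates of 1 line, so p-values measure only the spread between these wells. The series title names force on E-cadherin, EGFR and ERK, and the comparison asks which transcripts differ after this period of strain.

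SIKs are serine/threonine kinases of the AMPK-related family and are activated by the kinase LKB1. An active SIK phosphorylates CRTC proteins, which then stay in the cytoplasm bound to adaptor proteins. When cyclic AMP activates protein kinase A (PKA), PKA inhibits the SIKs, and the calcium-dependent phosphatase calcineurin removes phosphate from CRTCs; the freed CRTCs enter the nucleus and act as coactivators of CREB. SIK1 is itself a CREB target, which closes a feedback loop, and in epithelial cells it is known for effects on sodium transport and on E-cadherin expression. This control acts largely through phosphorylation and location, neither of which RNA counts measure.

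The wells held 27047358 to 32478887 counts each, and per-well values below are CPM (each count as a share of its library total, scaled by TMM, a factor that aligns the bulk of the genes between libraries). Kidney epithelial markers were present in every well, with summed levels from 4844 to 5420 CPM (control) and from 5123 to 5223 CPM (stretch), and 0 of the 8 passed in either edgeR fit or in DESeq2, 0 having an unadjusted p under 0.05; the kidney-specific cadherin CDH16 was low at 1.27 CPM in control wells. Lists of fibroblast, endothelial and leukocyte markers summed to at most 4.22, 1.73 and 0.993 CPM in any well, and COL3A1, DCN, PTPRC, ITGAM and CD3E had 0 counts in all 8 wells. The libraries are bulk, so more transcript per cell and more cells with the transcript cannot be told apart.

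Between genes, levels were compared as CPM per kilobase of annotated exon. In control wells the most abundant of the 8 was SIK2, at 13.9 ± 0.271 CPM per kilobase (SD, n = 4 for this and the values that follow). CRTC2 came next at 8.99 ± 0.797 and CRTC3 at 8.78 ± 0.494, and the wells of these 2 coactivators overlapped. CREM stood at 6.57 ± 0.717 and SIK3 at 5.42 ± 0.330. CREB1 at 3.71 ± 0.423, CRTC1 at 3.16 ± 0.123 and SIK1 at 3.02 ± 0.395 formed the lowest group, in which each neighbour overlapped the next. Apart from those 3 overlaps, no control well of one gene reached the range of its neighbour in the order. SIK1 was thus the least abundant of the 8 in unstrained cells by mean, and SIK2 the most abundant.

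**Figure D1:**
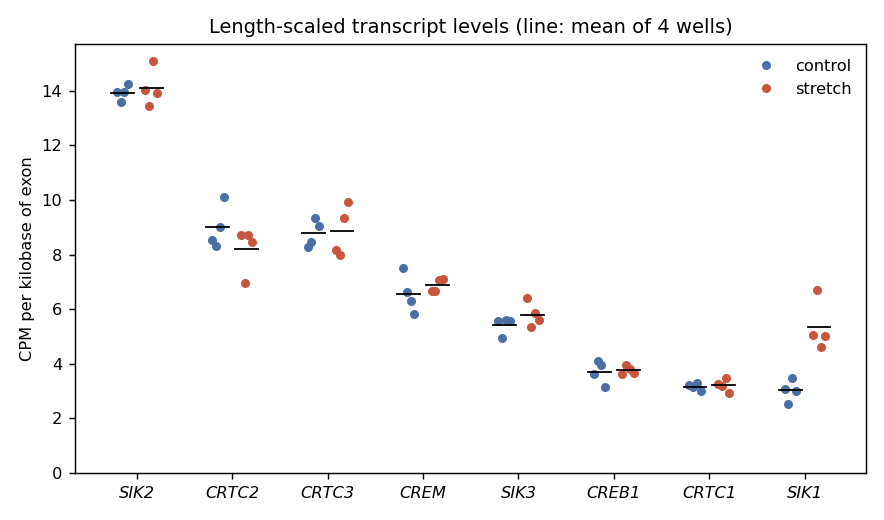
Length-scaled level of each transcript (CPM per kilobase of exon, vertical axis) in 4 control wells (blue) and 4 stretch wells (red), with a line at each mean; genes are ordered by control mean. SIK1 moves from the lowest place, 3.02 in control, to 5.35 in stretch wells, while the stretch means of the other 7 differ from control by -8.72% to 6.95%.

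SIK1 is the inducible member of the kinase family and lies on chromosome 31 (37344622 to 37356464, minus strand; dog assembly UU_Cfam_GSD_1.0 for all positions). It was read from 352 to 465 counts per control well and 607 to 818 counts per stretch well. In control wells 1 to 4 it measured 13.8, 11.4, 15.7 and 13.5 CPM. In stretch wells 1 to 4 it measured 22.8, 30.2, 20.8 and 22.7 CPM. Every stretch well stood above every control well, with the highest control well at 15.7 and the lowest stretch well at 20.8 CPM. The means were 13.6 ± 1.78 and 24.1 ± 4.16 CPM (SD, n = 4), a log2 change of 0.82 ± 0.13 (SE), or 1.77-fold, with a 95% interval from 1.46 to 2.14-fold.

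Among all 14571 genes, SIK1 ranked 2 by p-value without a block and 174 with the replicate number as a block. It still missed the threshold after adjustment over all of them (edgeR quasi-likelihood test without a block, Benjamini-Hochberg adjusted p = 0.0937). In that fit 0 of 14571 genes passed (0%), while 579 had an unadjusted p under 0.05 (3.97%); DESeq2 called 40. A fit blocked on the replicate number called 102 genes (0.7%) but not SIK1, at 0.82 ± 0.15 (edgeR, adjusted p = 0.0940). The 4 same-numbered pairs were all higher in stretch, by 0.72, 1.41, 0.40 and 0.75 on the log2 scale for numbers 1 to 4, so the pairs agreed in sign but differed widely in size. Groups that do not overlap in either direction were found for 2.55% of all tested genes, and SIK1 was the 1 member of the 8 among them.

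Whether SIK1 passed depended on the tool and on single wells. DESeq2 without a block called it (adjusted p = 1.2e-05), as did edgeR with no count filter (adjusted p = 0.00602). Over 30 alternatives its adjusted p ran from 1.6e-23 to 0.386, and it passed in 10. The lowest came from edgeR with the replicate block and no count filter, a fit that called 448 genes and gave SIK1 an SE of 0.077. The highest came from edgeR without stretch replicate 2. Leaving out each of the 8 wells in turn gave log2 changes from 0.70 to 0.90, and SIK1 passed in 1 of these fits, without control replicate 3, the highest control well (edgeR, adjusted p = 0.0179). In the blocked fit it passed without pair 2 at 0.63 and without pair 3 at 0.96 (edgeR, adjusted p = 0.00136 and 3.3e-04). Within replicates 1 and 2 alone the change was 1.07, and within replicates 3 and 4 alone it was 0.58 (edgeR, adjusted p = 0.00157 and 0.0449).

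**Figure D2:**
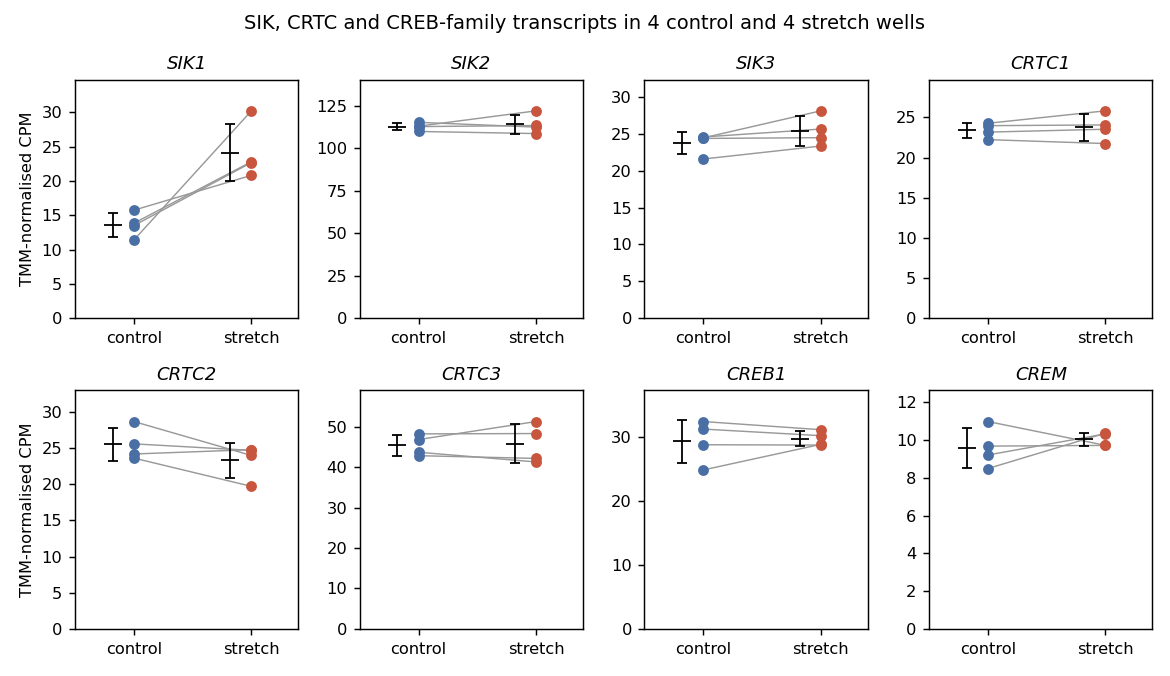
TMM-normalised CPM (vertical axes from 0) of each transcript in control (blue) and stretch (red) wells; grey lines join wells of the same number, and black bars give the mean and SD of 4 wells. Only the SIK1 panel shows groups that do not overlap, with control wells from 11.4 to 15.7 and stretch wells from 20.8 to 30.2 CPM.

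SIK2 and SIK3 are the constitutive relatives of SIK1, and both lie on chromosome 5. SIK2 (21387568 to 21513180, minus strand) measured 113, 110.04, 113 and 115 CPM in control wells 1 to 4 and 114, 109, 122 and 113 CPM in stretch wells 1 to 4. The groups overlapped fully around means of 113 ± 2.20 and 114 ± 5.66 CPM, and the log2 change of 0.018 had a 95% interval from 0.941 to 1.09-fold (edgeR without a block, adjusted p = 0.999). SIK3 (16521767 to 16762124, plus strand) measured 24.5, 21.6, 24.6 and 24.4 CPM in control wells and 28.1, 23.3, 25.7 and 24.5 CPM in stretch wells. All 4 SIK3 pairs were higher in stretch, as they were for 8.45% of tested genes, but the groups overlapped and the log2 change of 0.097 (0.951 to 1.203-fold) did not pass (edgeR without a block, adjusted p = 0.999). On the opposite strand, PPP2R1B shares 245 exon bases with SIK2 and LOC119871806 shares 1218 with SIK3; the first was at 242 ± 8.60 CPM in control wells, and the second had 0 counts in all 8 wells. The strand setting of the counting is not given in the sources used here, so values of genes with such overlaps are uncertain to that extent.

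The difference between SIK1 and its relatives was tested as a ratio within each well, which does not depend on the library scaling. The length-scaled log2 ratio of SIK1 to SIK2 ran from -2.43 to -2.0 in control wells and from -1.71 to -1.0 in stretch wells. Its mean went from -2.22 ± 0.18 to -1.41 ± 0.30, a difference of 0.80 (two-sided exact permutation p = 0.0286, n = 4 each). The ratio of SIK1 to SIK3 had means of -0.85 ± 0.12 and -0.13 ± 0.32, a difference of 0.72 (exact permutation p = 0.0286, n = 4 each). For 4 wells against 4 this is the smallest p the test can give, over 70 assignments, and it is the same after adjustment over the 2 ratios, but this test does not use the pairing by replicate number. Both ratios were higher in stretch in 4 of 4 pairs, and exchanging wells only within pairs, a test added after the values were seen, gave an exact permutation p of 0.125 for each, the smallest that its 16 assignments allow, so the paired form cannot reach 0.05. The genes were chosen with earlier results of these wells known, so the p-values are not independent evidence. Both ratios also reuse the SIK1 values given above, whose groups did not overlap, so they are not a further test of SIK1.

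Added together per kilobase, the 3 kinases measured 22.6, 21.0, 23.1 and 22.8 in control wells 1 to 4 and 25.5, 25.5, 25.6 and 24.5 in stretch wells 1 to 4. The sums did not overlap between groups, as was found for 2.55% of single tested genes. Of the 3 kinases, only SIK1 had groups that did not overlap. Its mean per kilobase went from 3.02 to 5.35, that of SIK3 from 5.42 to 5.80 and that of SIK2 from 13.9 to 14.1. SIK1 made up 13.5 ± 1.30% of the sum in control wells and 21.2 ± 3.58% in stretch wells (SD, n = 4), while the share of SIK2 was 62.3 ± 1.69% and 55.9 ± 2.65%. SIK2 therefore remained the largest part of the SIK transcript pool in every well. In stretch wells SIK1 reached 5.35 ± 0.923 CPM per kilobase, where its wells overlapped those of SIK3 (5.80 ± 0.467) and all lay above those of CREB1 (3.76 ± 0.146).

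**Figure D3:**
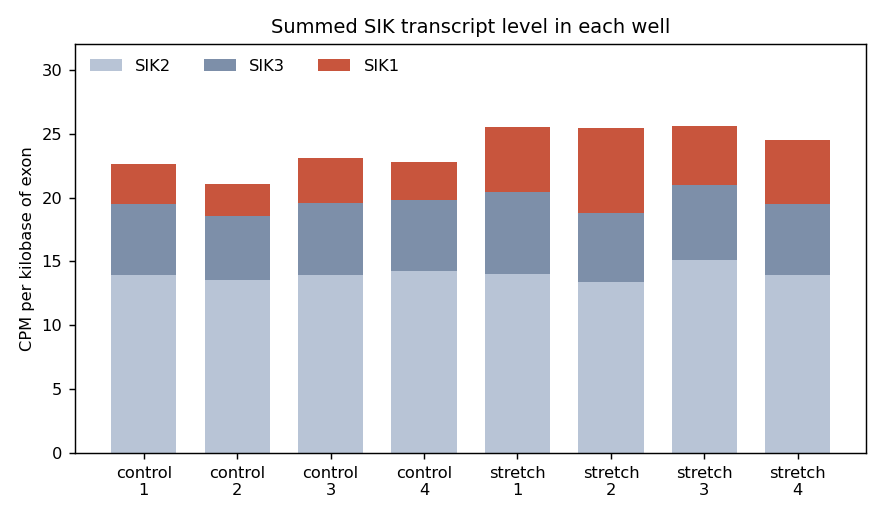
Stacked bars of the length-scaled levels of SIK2, SIK3 and SIK1 (CPM per kilobase of exon) in each of the 8 wells. The share of SIK1 in the bar is 12.01 to 15.1% for control and 18.1 to 26.3% for stretch.

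The CRTC genes encode the coactivators that SIKs hold in the cytoplasm. CRTC1, on chromosome 20 (44724092 to 44803449), is best known from neurons and was the least abundant of the 3 per kilobase. It measured 24.0, 23.2, 24.3 and 22.2 CPM in control wells and 24.1, 23.5, 25.8 and 21.8 CPM in stretch wells, with overlapping groups. CRTC2, on chromosome 7 (43161959 to 43170830), is known for driving hepatic gluconeogenesis genes. It measured 24.2, 23.6, 25.6 and 28.6 CPM in control wells and 24.8, 19.7, 24.7 and 24.0 CPM in stretch wells. CRTC2 had the only negative difference among the 8, -0.13 on the log2 scale (0.796 to 1.05-fold), was lower in 3 of 4 pairs and did not pass (edgeR without a block, adjusted p = 0.999; with the block, 0.624).

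CRTC3, on chromosome 3 (54048110 to 54147176), measured 42.8, 43.7, 48.2 and 46.8 CPM in control wells and 42.2, 41.3, 48.3 and 51.3 CPM in stretch wells. Its wells divided by replicate number and not by strain. Numbers 1 and 2 of both groups lay between 41.3 and 43.7 CPM, and numbers 3 and 4 of both groups between 46.8 and 51.3 CPM, a division noticed after the values were seen. The share of all tested genes that divide in this way was not counted. Across genes, control well 1 also differed less from control well 2 than from control well 3 (chi-square per degree of freedom of 5.56 and 26.8). The division is therefore not shown to be particular to CRTC3. The log2 changes were 0.023 for CRTC1 (0.910 to 1.13-fold) and 0.012 for CRTC3 (0.899 to 1.13-fold), and neither passed (edgeR without a block, adjusted p = 0.999 for both). As shares of the summed CRTC level per kilobase, CRTC1 held 15.1 ± 1.14% in control and 15.9 ± 1.56% in stretch wells, CRTC2 held 42.9 ± 1.82% and 40.5 ± 2.12%, and CRTC3 held 41.9 ± 1.04% and 43.6 ± 2.49%. The control ranges overlapped the stretch ranges for all 3 shares.

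CREB1 encodes the transcription factor CREB, which binds cyclic AMP response elements, and lies on chromosome 37 (15785052 to 15847761, plus strand). It measured 28.9, 32.5, 31.3 and 24.9 CPM in control wells and 28.8, 31.2, 30.3 and 28.9 CPM in stretch wells, so that all stretch wells fell inside the control range. The log2 change was 0.020 (0.895 to 1.149-fold; edgeR without a block, adjusted p = 0.999). METTL21A on the opposite strand shares 122 of its exon bases. CREM, on chromosome 2 (1973934 to 2024249, minus strand), encodes activators and repressors of the same elements, among them ICER, a short repressor made from an internal promoter that cyclic AMP induces. The table holds 1 count per gene, so ICER could not be separated from the other CREM transcripts. CREM measured 10.98, 9.68, 9.21 and 8.49 CPM in control wells and 9.72, 9.72, 10.3 and 10.4 CPM in stretch wells. The stretch wells lay inside the control range, and the log2 change of 0.067 (0.897 to 1.22-fold) did not pass (edgeR without a block, adjusted p = 0.999).

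**Figure D4:**
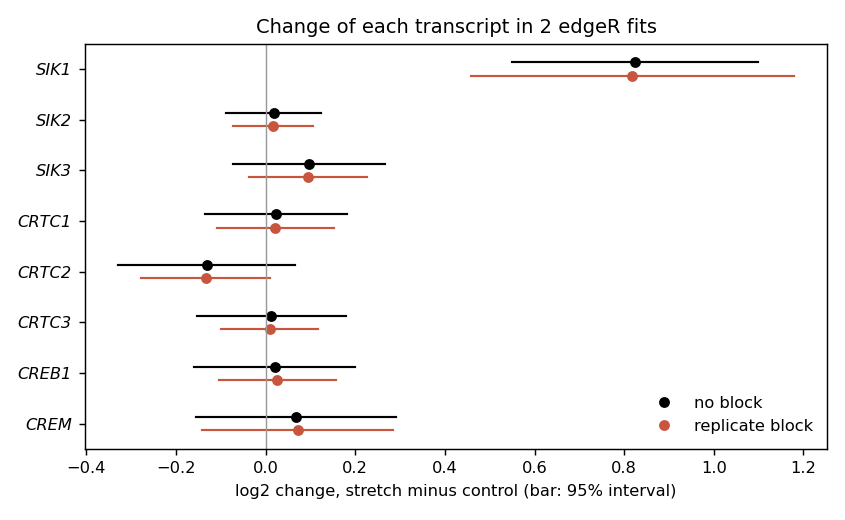
Log2 change of each transcript (stretch minus control, horizontal axis) with its 95% interval from edgeR without a block (black) and with the replicate block (red). The SIK1 intervals lie above those of the other 7, which all include 0.

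Of the 8 members, 0 were called in either edgeR fit and 1 by DESeq2, beside 40 of all 14571 genes. Of the members, 1 had an unadjusted p under 0.05 in edgeR without a block (3.97% of all tested genes), and 7 had a log2 change above 0. Their median log2 change was 0.022, beside -0.0032 over all 14571 genes, for which the middle 90% ran from -0.22 to 0.30. SIK1 was the 1 member outside that span. For the other 7 the 95% intervals without a block reached from 0.796-fold at the low end (CRTC2) to 1.22-fold at the high end (CREM), which bounds the differences but does not show that the levels were equal.

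Among the genes whose pattern over the 8 wells was most like that of SIK1 were NR4A1, ETS2, FOSL2 and IFRD1, with Pearson r of log2 CPM of 0.981, 0.980, 0.941 and 0.938 (n = 8 wells, ranked among all tested genes). The wells share the same 2 groups, which raises such values. With the group means removed, r was 0.934, 0.887, 0.755 and 0.60 in the same order. The genes were picked by r over these same wells, which raises these values as well. NR4A1, an orphan nuclear receptor gene, went from 14.02 to 34.1 CPM on average, and ETS2, an ETS-family transcription factor gene, from 81.2 to 118 CPM. Of these 4, IFRD1 passed in edgeR with the replicate block (adjusted p = 0.00194) and the other 3 did not.

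The upstream side of the pathway was read from lists of other genes, drawn up with earlier results of these wells in view. Of 12 genes of PKA, its inhibitors and its anchors, 9 were tested and 0 passed in either edgeR fit or in DESeq2, 0 having an unadjusted p under 0.05 in edgeR, with a median log2 change of -0.0067 and a range from -0.18 to 0.060. The catalytic subunit genes PRKACA and PRKACB were at 30.8 and 67.1 CPM in control and 30.6 and 66.5 CPM in stretch wells. The smallest p-values were those of AKAP12, an anchoring protein gene, at 0.060, and the PKA inhibitor gene PKIG, at -0.18 (edgeR without a block, adjusted p = 0.999 for both). Of 19 genes that make or break down cyclic AMP, 10 were tested; again 0 passed in edgeR or DESeq2 and 0 had an unadjusted p under 0.05, with a median log2 change of 0.0097. The phosphodiesterase genes PDE7A and PDE4B had the smallest p, with log2 changes of -0.16 and 0.18 (edgeR without a block, adjusted p = 0.999 for both).

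Among 17 genes of the LKB1 complex and the AMPK-related kinases, 16 were tested, with a median log2 change of -0.045. In edgeR without the block and in DESeq2 0 passed, and 1 had an unadjusted p under 0.05 in edgeR, beside 3.97% of all tested genes. In edgeR with the block 1 passed, beside 0.7% of all tested genes. That gene was NUAK2, another LKB1-activated kinase, on chromosome 38. It measured 17.3, 23.2, 37.7 and 28.7 CPM in control wells 1 to 4 and 24.7, 42.2, 56.0 and 40.4 CPM in stretch wells 1 to 4. The groups overlapped, but each stretch well was above the control well of its number, and NUAK2 rose by 0.61 ± 0.065 (SE) with the block (edgeR, adjusted p = 1.6e-04; 0.999 without it). STK11, the gene of LKB1, was at 59.8 ± 3.00 CPM in control and 56.0 ± 3.34 CPM in stretch wells and did not pass. SNRK, named here after its values were seen, was the 1 gene of this list with every stretch well below every control well (1.24% of all tested genes), at 41.4 and 36.1 CPM on average (edgeR, adjusted p = 0.999 without and 0.197 with the block).

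Of 15 genes of phosphatases and adaptor proteins that act on CRTCs, all were tested, with a median log2 change of 0.024. In edgeR without the block 0 passed, and 1 had an unadjusted p under 0.05, beside 3.97% of all tested genes. With the block 1 passed, beside 0.7% of all tested genes, and DESeq2 called 1, beside 40 of all 14571 genes. In both cases the gene was RCAN1 on chromosome 31, which encodes a regulator of calcineurin. It measured 69.0, 66.2, 62.3 and 68.5 CPM in control wells and 78.1, 77.3, 81.9 and 78.8 CPM in stretch wells. Every stretch well was above every control well, as for 1.3% of all tested genes. RCAN1 rose by 0.25 ± 0.049 (SE) with the block (edgeR, adjusted p = 0.0208; 0.371 without it). The calcineurin subunit genes PPP3CA, PPP3CB, PPP3CC and PPP3R1 had log2 changes from -0.062 to 0.041 and did not pass.

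The 13 CREB relatives and coactivators gave 12 tested genes, with a median log2 change of -0.029. Of these, 0 passed in either edgeR fit or in DESeq2, and 1 had an unadjusted p under 0.05, beside 3.97% of all tested genes. CREB5, a factor related to ATF2, measured 6.98, 8.09, 6.16 and 6.72 CPM in control wells and 8.55, 8.57, 8.61 and 9.15 CPM in stretch wells. These groups did not overlap (2.55% of all tested genes, in either direction), and the log2 change of 0.32 did not pass (edgeR, adjusted p = 0.999 without and 0.265 with the block). CREBBP, the gene of the acetyltransferase CBP that binds phosphorylated CREB, had a log2 change of -0.10 (edgeR without a block, adjusted p = 0.999). Class IIa histone deacetylases are further SIK substrates that repress MEF2 factors. Of 8 genes on that list 5 were tested, with a median of 0.055. In either edgeR fit and in DESeq2 0 passed, and 1 had an unadjusted p under 0.05, beside 3.97% of all tested genes. The log2 changes of MEF2A and MEF2D were 0.21 and 0.16 (edgeR with the block, adjusted p = 0.0683 and 0.265). MEF2A overlaps 2 genes on the opposite strand.

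On the output side, 25 genes known as CREB targets were listed, most of which also respond to other factors such as SRF. Of the 23 tested, 20 had a log2 change above 0, and the median was 0.61 beside -0.0032 over all genes. In the unblocked edgeR fit 0 passed, 12 having an unadjusted p under 0.05, beside 3.97% of all tested genes. DESeq2 called 5 (FOSB, EGR1, NR4A1, DUSP1 and BTG2), beside 40 of all 14571 genes. With the block 4 of the 23 passed and all 4 rose, beside 0.528% of all tested genes called higher. Of the 23, 9 had every stretch well above every control well, against 1.30% of all tested genes: FOSB, EGR1, NR4A1, NR4A2, NR4A3, PER1, DUSP1, BTG2 and KLF4. CCNA2, the cyclin A2 gene, named here after its values were seen, was the 1 gene of the list with every stretch well below every control well (1.24% of all tested genes), at 160.01 and 139.9 CPM on average. Its log2 change of -0.19 did not pass (edgeR, adjusted p = 0.999 without and 0.148 with the block). The list was drawn up knowing that immediate-early genes stood out in these wells, so its direction is not independent evidence, and PDE4B and PDE4D also stand on the cyclic AMP list.

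The 4 that rose with the block were EGR1, ATF3, BTG2 and NR4A3. EGR1, a zinc-finger factor gene, measured 224, 251, 193 and 224 CPM in control wells 1 to 4 and 292, 362, 283 and 260 CPM in stretch wells 1 to 4, a rise of 0.42 ± 0.050 (SE; edgeR with the block, adjusted p = 0.00169). ATF3, a stress-induced factor of the ATF/CREB family, measured 68.8, 57.8, 39.5 and 37.3 CPM in control wells and 96.4, 103, 54.5 and 55.4 CPM in stretch wells. Its groups overlapped, with numbers 1 and 2 the higher wells in both, and the rise of 0.59 ± 0.060 passed with the block and not without it (edgeR, adjusted p = 1.6e-04 and 0.999). BTG2, an antiproliferative gene, measured 50.8, 60.7, 60.7 and 57.3 CPM in control wells and 78.7, 123, 100.3 and 79.3 CPM in stretch wells. NR4A3, a nuclear receptor gene close to NR4A1, was low, at 1.03, 0.485, 0.305 and 0.560 CPM in control wells and 1.58, 3.03, 1.06 and 1.18 CPM in stretch wells. For EGR1, BTG2 and NR4A3 the groups did not overlap, and stretch well 2 was the highest well of each, as it was for SIK1.

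**Figure D5:**
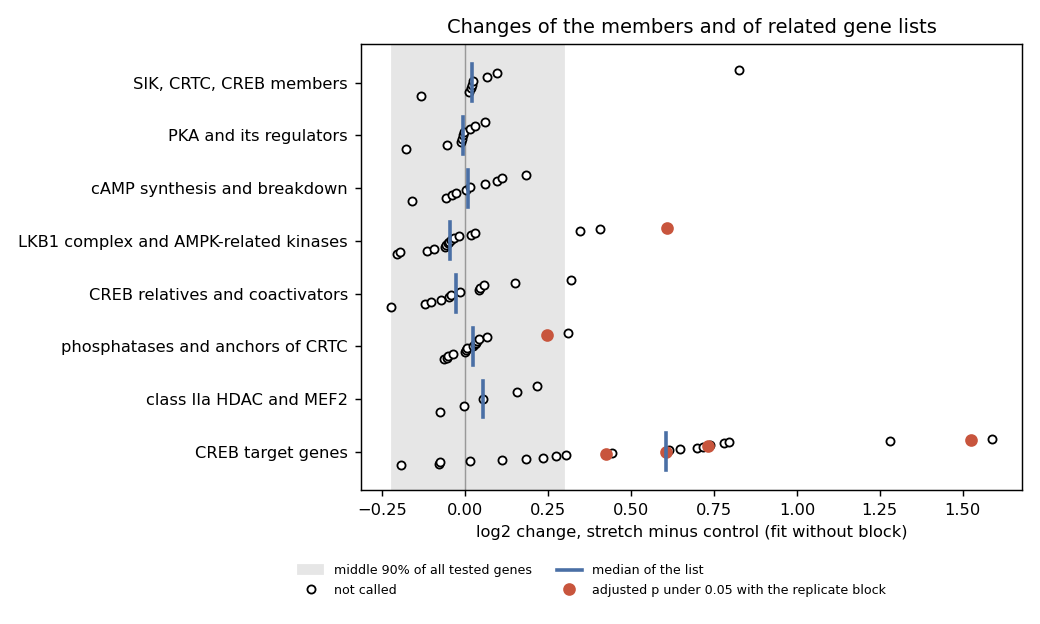
Log2 change (stretch minus control, fit without a block) of every tested gene of the 8 members and of 7 related lists; filled red points passed with the replicate block, blue ticks are list medians, and the grey band holds the middle 90% of all tested genes. The 4 red points on the CREB target row and the median of 0.61 lie to the right of the band, while the medians of the other rows lie between -0.045 and 0.055.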

How the data were processed

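PolyA-selected, strand-specific TruSeq libraries of 4 control and 4 stretch wells were analysed. The authors deposited 1 table of raw exon read counts per gene; the submitters' processing notes name FastQC 0.11.8, Trim Galore 0.6.5, STAR 2.7.3a, Subread and featureCounts. The strand setting, the rule for reads that map to several genes and the build are not given in the sources used here; all 37291 gene symbols found in the RefSeq table of UU_Cfam_GSD_1.0 had the same start and end there. Columns were matched to wells by library name.

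Counts were tested in R 4.3.3 with edgeR 4.0.16 (TMM, filterByExpr with a minimum count of 10, glmQLFit with robust estimation, glmQLFTest), with an intercept and a stretch term. P-values were two-sided and Benjamini-Hochberg adjusted over 14571 genes, with 0.05 as the threshold. SEs are the log2 change divided by the root of F, and intervals are 95%. Log2 CPM for correlations used a prior count of 2. Equal replicate numbers were taken as pairs because same-numbered wells deviated together from their group means (correlations across genes of 0.328, 0.108, 0.182 and 0.178). The labels state no pairing, and differently numbered wells were not compared in this way. These correlations therefore do not show that wells match by number. The fit with this block is given as the alternative. Wells of a group differed by more than sampling noise (chi-square per degree of freedom of at least 5.56). In each group they differed least between numbers 1 and 2 and between numbers 3 and 4. DESeq2 1.42.0 and limma-voom (limma 3.58.1) were alternatives. On simulated counts of 14445 genes for the stretch comparison, the fit without a block recovered 74% of 1.5-fold and 84% of 2-fold changes, and the blocked fit 76% and 90%. These counts had 100 changed genes at each fold and took their spread between wells from the blocked fit. The shift shared by same-numbered wells had the same SD for every gene. Real wells can differ from these settings, so the rates may be too high for these data, where the unblocked fit called 0 genes.

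The members and lists were chosen with earlier results of these data known. Named were all members, each list's genes past the threshold in either fit or, failing these, its 2 with the smallest p, and the 5 genes most correlated with SIK1 (1 of which is not reported here) and with CREM. No sequences are shown. Figures were drawn with matplotlib 3.10.9.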

Additional observations from a re-analysis of the deposited data

Results flagged for a closer look

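In 2 of the 16 combinations of member and group, 1 well lay far from the other 3 by the ratio of its gap to the range, where chance would give about 0.8. SIK3 in control replicate 2 was 21.6 CPM against 24.4 to 24.6 CPM in the other control wells. CRTC2 in stretch replicate 2 was 19.7 CPM against 24.0 to 24.8 CPM in the other stretch wells.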

How the results depend on the processing

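The count of genes called, 0 without a block, was 102 with the replicate block, 40 with DESeq2, 11 with no count filter, 51 within replicates 1 and 2 and 25 within replicates 3 and 4. Fits added after seeing the data gave 58 with a block of 2 levels (replicates 1 and 2, replicates 3 and 4) and, with the replicate block, 145 with DESeq2, 100 with limma-voom, 105 with DESeq2 size factors, 111 with library size only, 112 with upper-quartile factors, 448 with no count filter and 97 with at least 10 counts in every well. Leaving out 1 well gave 0 to 12, and leaving out pair 1, 2, 3 or 4 with the block gave 43, 67, 186 and 74. The count of members called, 0, became 1 (SIK1 each time) in 10 of 30 alternatives: DESeq2, no count filter, both of these with the replicate block, the block of 2 levels, within replicates 1 and 2, within replicates 3 and 4, and 3 of the 12 fits that left out a well or a pair (range 0 to 1); the cause was not tested. SIK1 kept its direction in all 30, from 0.58 to 1.07. The other 7 members were called in 0 of 210 values (lowest adjusted p 0.550). Their sign turned in 16: within replicates 1 and 2, SIK2 was -0.0038, CRTC3 -0.052, CREB1 -0.034 and CREM -0.086; leaving out 1 well, SIK2 ran from -0.014 to 0.044, CRTC1 from -0.017 to 0.068, CRTC3 from -0.044 to 0.061 and CREB1 from -0.051 to 0.076; with the replicate block and 1 pair left out, SIK2 reached -0.015, CRTC1 -0.0023, CRTC3 -0.033, CREB1 -0.036 and CREM -0.0015. CRTC2 and SIK3 kept their signs throughout.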

Other observations

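The genes whose pattern over the 8 wells was most like that of CREM were EMC2, LOC481017, VAMP3, SMIM15 and SDF4, with Pearson r of log2 CPM of 0.957, 0.935, 0.934, 0.904 and 0.904, and 0.962, 0.931, 0.943, 0.892 and 0.90 with the group means removed. Picking them by r over these same wells raises both sets of values. None of these 5 genes was among the 5 most like SIK1, and their log2 changes between the groups ran from 0.015 to 0.11.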
